A study of Mus musculus with 12 samples.

Results

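Hba-a1, Hba-a2, Hbb-bs, Hbb-bt, Alas2 and Slc4a1, 6 genes that red cells and their precursors express, were followed in livers of mice with carbon tetrachloride (CCl4) fibrosis. These 6 were taken by symbol from the 21936 genes of the expression table as a readout of the blood that a piece of liver holds. The study asked how exosomes of human adipose mesenchymal stem cells (hADMSCs-Exo), small vesicles that these cells shed in culture, act on a fibrotic liver. Each animal was a male C57BL/6 mouse (C57BL/6J in the study's methods), 6 weeks old on arrival, and all of them had CCl4 at 1 mL/kg into the peritoneum, 2 injections a week over 8 weeks. In the liver fibrosis group (LFG) the mice were killed at that point. In the regression group (REG) 200 µL of phosphate-buffered saline (PBS) followed through the tail vein, and in the hADMSCs-Exo group 250 µg of exosome protein in the same volume, for both 2 times a week over 4 weeks. There were 3 libraries per group, and the hADMSCs group and livers without CCl4 were not analysed here. LFG differs from the other groups also in age and in the time since CCl4, which cannot be told apart from the injections of PBS or exosomes.

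Hemoglobin carries oxygen and is built from alpha and beta chains, each of which holds a heme. In adult mice Hba-a1 and Hba-a2 encode the alpha chain, and Hbb-bs and Hbb-bt encode the beta chain. Alas2 is the erythroid form of the enzyme that opens heme synthesis, a step for which hepatocytes use Alas1, and Slc4a1 is band 3, the anion exchanger and main membrane anchor of the red cell. The liver makes red cells in the fetus, while in the adult the bone marrow and, in mice, the spleen do so. Red cells in blood have lost their nucleus, and the young ones among them still carry the RNA of these genes. In whole tissue, fewer red cells and less RNA per red cell cannot be told apart.

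All 6 are protein coding genes on GRCm38 with the same start and end in the GENCODE M21 annotation. The alpha genes lie on the forward strand of chromosome 11, with the theta gene Hbq1b between them, Hba-a1 (ENSMUSG00000069919) from 32283511 to 32284465 and Hba-a2 (ENSMUSG00000069917) from 32296489 to 32297298. The beta genes lie on the reverse strand of chromosome 7, Hbb-bs (ENSMUSG00000052305) from 103826534 to 103828096 and Hbb-bt (ENSMUSG00000073940) from 103812524 to 103813996. Slc4a1 (ENSMUSG00000006574) is on the reverse strand of chromosome 11 from 102348824 to 102366203. Alas2 (ENSMUSG00000025270) runs on the forward strand of chromosome X from 150547375 to 150570638, across Apex2, a DNA repair gene on the opposite strand, and 311 of its 2403 exonic bases are also exonic in an overlapping gene. The other 5 share no exonic base with a neighbour.

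The sequence before each start is shown as a description of these genes. Whether it bears on their levels in whole liver was not tested. RefSeq's table for GRCm38.p6 holds the upstream sequence of 5 of the 6 genes, without Slc4a1. In the 250 bases before each RefSeq start, 4 short motifs were searched on both strands: GATAA, the core of sites for GATA factors, CACCC, the core of sites for Klf1 and related factors, CCAAT, and TATAA, the core of the TATA box. Printed below, read 5′ to 3′ on the gene's own strand with motif matches on either strand in capitals, is each stretch up to the first base that GENCODE annotates as exon.
Hba-a2, chr11:32296242-32296488, forward strand: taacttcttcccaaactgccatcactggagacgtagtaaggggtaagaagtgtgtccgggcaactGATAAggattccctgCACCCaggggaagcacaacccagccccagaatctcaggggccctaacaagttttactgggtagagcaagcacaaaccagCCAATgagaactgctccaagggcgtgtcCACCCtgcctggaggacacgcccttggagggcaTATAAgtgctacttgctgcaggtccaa
Hbb-bs, chr7:103828097-103828178, reverse strand: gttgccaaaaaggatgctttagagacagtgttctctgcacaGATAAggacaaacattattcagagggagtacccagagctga
Hbb-bt, chr7:103813997-103814173, reverse strand: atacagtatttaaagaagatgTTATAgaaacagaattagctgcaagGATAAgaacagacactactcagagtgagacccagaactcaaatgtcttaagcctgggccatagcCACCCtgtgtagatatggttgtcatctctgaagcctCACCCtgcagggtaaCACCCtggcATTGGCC
Alas2, chrX:150547167-150547374, forward strand: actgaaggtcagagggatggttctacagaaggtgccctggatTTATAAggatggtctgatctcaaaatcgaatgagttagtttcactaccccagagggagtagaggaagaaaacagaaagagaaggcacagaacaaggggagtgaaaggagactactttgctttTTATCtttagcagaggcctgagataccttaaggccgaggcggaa

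Hba-a1 and Hba-a2 were the same at all 247 aligned bases of this window, so only the Hba-a2 copy is printed. Hbb-bs and Hbb-bt matched at 185 of 239 aligned bases (77.4%). Each of the 5 windows held exactly 1 GATAA, which in Alas2 is on the reverse strand (TTATC in the printed run). CACCC occurred 2 times in each alpha gene, 1 time in Hbb-bs, 3 times in Hbb-bt and 3 times, on the reverse strand and beyond the printed stretch, in Alas2. CCAAT occurred in all 4 globin windows and not in that of Alas2, and Hbb-bt held 3 of them, of which one on the reverse strand (ATTGG) lies near the end of the printed run and is followed at once by one on the forward strand, of which the run shows only the first 2 bases. The 4 globin genes had a TATAA whose last base lies 23 to 26 bases before the start, and Hbb-bt had another on the reverse strand, 225 bases before it. The pair of overlapping matches in Alas2 also lies farther out, 203 and 204 bases before the start. Of 32851 RefSeq windows of the same length, 22.6% held GATAA, 52.0% CACCC, 33.8% CCAAT and 22.8% TATAA, so these matches describe the windows and name no binding site.

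The near-identity of the copies also bears on the counts. The longest coding transcripts of Hba-a1 and Hba-a2 were identical at 537 of 538 aligned bases (99.8%), and those of Hbb-bs and Hbb-bt at 582 of 625 (93.1%). Of all 100-base stretches of a transcript, 56.5% in Hba-a1, 74.5% in Hba-a2, 62.6% in Hbb-bs and 54.8% in Hbb-bt occurred also in its copy. For Alas2 the share was 11.0%, all with Apex2, and for Slc4a1 it was 0. How reads that fit several genes, and the strand of reads, were treated in the counting is not given in the sources used here, so the split between copies is uncertain and each was also tested with its copy added.

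Library depth ran from 13837445 to 19840917 counts, and Alb, the albumin gene that defines hepatocytes, stood at 82237 to 135921 counts per 1000000 counts of the library (CPM). The third LFG library (LFG 3) stood apart. It had the fewest genes detected, 13924 against 14539 to 15248 in the others. The 10 markers of stellate cells and matrix summed to 19.7 CPM in it and to 811.5 and 1701 CPM in LFG 2 and LFG 1. Several results that rest on it are given with and without it. The spread within LFG, the DESeq2 and limma voom fits and the search for genes most like the globin genes are given only with it. Nothing in the labels says which mouse a library came from, so p-values measure the spread between libraries.

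Hemoglobin transcripts made up a small and very uneven share of the liver libraries. The 4 globin genes together took 0.0235%, 0.0208% and 0.00249% of all counts in LFG 1, 2 and 3. In REG 1, 2 and 3 they took 0.0812%, 0.0341% and 0.0111%, and in hADMSCs-Exo 1, 2 and 3 they took 0.00861%, 0.0222% and 0.0429%. The extremes, REG 1 and LFG 3, were 32.6-fold apart, and within a group the highest library exceeded the lowest 9.41-fold in LFG, 7.34-fold in REG and 4.98-fold in hADMSCs-Exo. Without LFG 3 the extremes were REG 1 and hADMSCs-Exo 1, 9.43-fold apart, and LFG 1 and LFG 2 were only 1.13-fold apart. Without REG 1 the ratio in REG was 3.08-fold, and without hADMSCs-Exo 1 it was 1.935-fold in that group. The group means were 0.0156% ± 0.0114 for LFG, 0.0421% ± 0.0358 for REG and 0.0246% ± 0.0173 for hADMSCs-Exo (SD, n = 3 each), so all groups overlapped. Without LFG 3 the LFG mean was 0.0221%, without REG 1 the REG mean was 0.0226%, and without hADMSCs-Exo 3 the mean of that group was 0.0154%. Counting error was small beside this: the 95% Wilson interval of the lowest library, 345 of 13837445 counts, ran from 0.00224% to 0.00277%. Intervals cover counting error alone.

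Of the alpha chain genes, Hba-a1 carried nearly all counts. It had 1176, 1160 and 128 counts in LFG 1 to 3, 4090, 1961 and 794 in REG 1 to 3, and 465, 1220 and 2292 in hADMSCs-Exo 1 to 3. As CPM this was 68.1, 70.5 and 9.25 CPM in LFG, 245.5, 99.4 and 40.0 CPM in REG, and 28.3, 74.1 and 135 CPM in hADMSCs-Exo. REG 1 was the highest library and LFG 3 the lowest, 26.5-fold apart (8.69-fold without LFG 3), and the groups overlapped. Hba-a2 had only 18, 35 and 29 counts in LFG, 104, 66 and 14 in REG, and 15, 56 and 69 in hADMSCs-Exo. Its lowest library was REG 3, not LFG 3, and its extremes were 8.85-fold apart.

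The beta chain genes showed nearly the same order of libraries. Hbb-bs, the highest of the 6 by mean FPKM, had 2486, 1969 and 168 counts in LFG 1 to 3, 8151, 4223 and 1202 in REG 1 to 3, and 819, 2137 and 4397 in hADMSCs-Exo 1 to 3. Its levels were 144, 120 and 12.1 CPM in LFG, 489, 214 and 60.6 CPM in REG, and 49.8, 130 and 259 CPM in hADMSCs-Exo, a 40.3-fold range (9.83-fold without LFG 3). By counts, Hbb-bs held rank 217 among all genes of REG 1 and rank 6192 in LFG 3. Hbb-bt had 369, 257 and 20 counts in LFG, 1189, 477 and 187 in REG, and 118, 239 and 531 in hADMSCs-Exo, a 49.4-fold range in CPM (9.95-fold without LFG 3). For both genes REG 1 and hADMSCs-Exo 3 were the highest libraries and LFG 3 the lowest.

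Alas2 behaved differently. It had 390, 554 and 703 counts in LFG 1 to 3, 805, 1758 and 1307 in REG 1 to 3, and 415, 853 and 958 in hADMSCs-Exo 1 to 3. The levels were 22.6, 33.7 and 50.8 CPM in LFG, 48.3, 89.1 and 65.9 CPM in REG, and 25.2, 51.8 and 56.4 CPM in hADMSCs-Exo, only 3.94-fold from lowest to highest. LFG 3, which was lowest for the main globin genes, had the highest Alas2 of its group, and REG 1, which was highest for them, had the lowest Alas2 of its group.

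Slc4a1 was near the limit of detection. It had 17, 18 and 0 counts in LFG 1 to 3, 37, 17 and 2 in REG 1 to 3, and 4, 6 and 40 in hADMSCs-Exo 1 to 3. The 0 in LFG 3 allows a level of up to 0.217 CPM (3 counts of its total). The libraries with the most counts, hADMSCs-Exo 3 and REG 1, were also the highest for Hbb-bs.

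**Figure D1:**
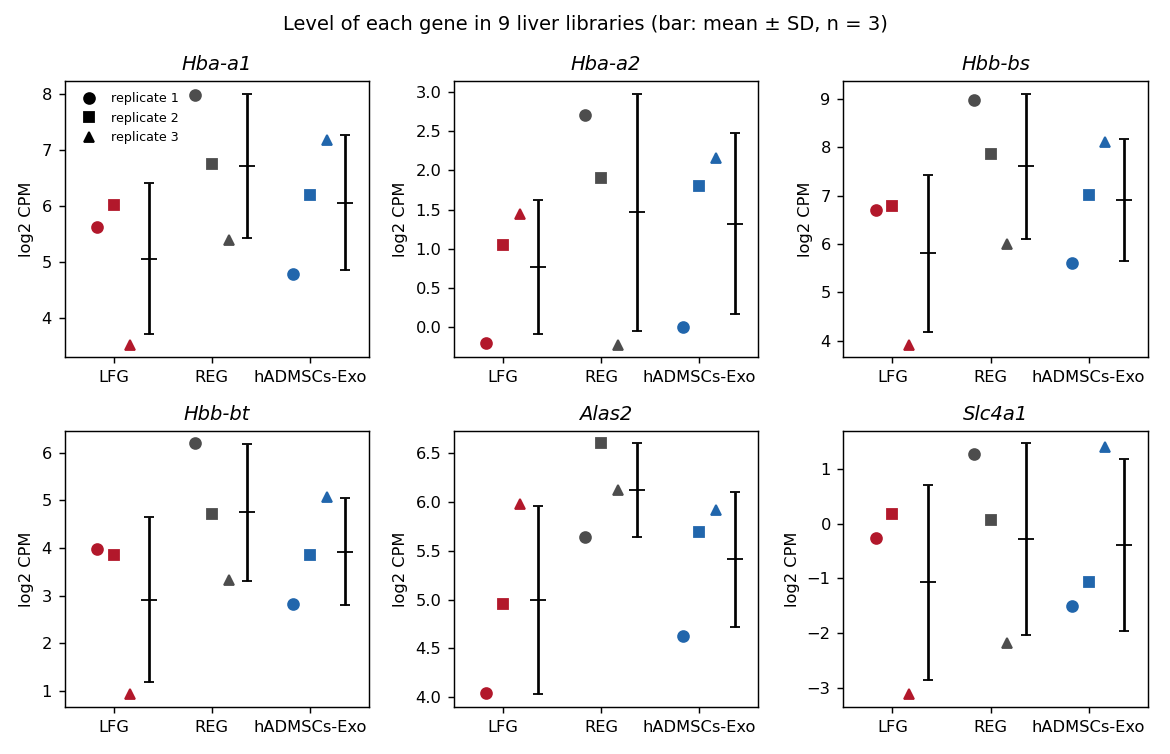
Level of each of the 6 genes (vertical axes, log2 CPM with a prior count of 2, scaled by TMM factors, each panel with its own range) in the LFG, REG and hADMSCs-Exo libraries; symbols mark the replicate number and bars the mean ± SD of 3 libraries. In Hba-a1, Hbb-bs, Hbb-bt and Slc4a1 the LFG 3 triangle lies at the bottom and REG 1 or hADMSCs-Exo 3 at the top, whereas in Alas2 LFG 3 lies above LFG 1 and LFG 2.

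Compared per length in FPKM (CPM per kilobase of gene), the genes ranked Hbb-bs, Hba-a1, Hbb-bt, Alas2, Hba-a2 and Slc4a1 by their mean over 9 libraries. Hbb-bs had 214 ± 189 FPKM (SD, n = 9), Hba-a1 105 ± 87.1, Hbb-bt 31.0 ± 29.4, Alas2 20.5 ± 8.65, Hba-a2 3.99 ± 2.70 and Slc4a1 0.187 ± 0.178. Hbb-bs was above Hba-a1 and Hba-a1 above Hbb-bt in 9 of 9 libraries, and so were Alas2 above Hba-a2 and Hba-a2 above Slc4a1. Hbb-bt was above Alas2 in only 4 of 9, so the order of these neighbours was not settled. In LFG 3 the Alas2 level was 1.34 times that of Hbb-bs in FPKM, against 0.0316 to 0.348 times in the other 8 libraries.

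The spread of these genes between libraries of 1 group was above that of the median gene. The within-group SD of log2 CPM, pooled over the 3 groups, was 1.47 for Hbb-bs, 1.45 for Hbb-bt, 1.28 for Hba-a1, 1.20 for Hba-a2 and 1.70 for Slc4a1, beside a median of 0.375 over the 12760 genes tested. Alas2 had 0.74. In REG, where the median gene had an SD of 0.23, only 85 of 12760 genes had a larger SD than Hbb-bs and 48 a larger one than Slc4a1, while 2333 had a larger one than Alas2. In hADMSCs-Exo the numbers were 229, 98 and 1336. In LFG, where the median gene had an SD of 0.468, they were 977, 787 and 2689, and 3205 genes had a larger SD than Hba-a2. Leaving the LFG libraries out, the pooled SD of Hbb-bs was 1.39 and that of the median gene 0.26. The ranks were not matched for level. Slc4a1 had only 2 to 37 counts in REG, and its SD and that of Hba-a2 include the counting error of few counts.

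Whether exosomes changed these genes beyond the regression with PBS is the comparison of hADMSCs-Exo with REG. None of the 6 passed edgeR's quasi-likelihood test at the study's thresholds, which ask for an adjusted p below 0.05 together with a log2 fold change of 1 or more in size, where 0.00811% of the 12337 genes tested did (1 gene). None passed an unadjusted p under 0.05 either, which 10.0% of all genes did, and none had groups that did not overlap, which 15.8% did. The log2 fold change was -0.82 ± 0.76 (SE) for Hbb-bs, -1.005 ± 0.742 for Hbb-bt, -0.72 ± 0.70 for Hba-a1 and -0.32 ± 0.75 for Hba-a2, with adjusted p of 0.733, 0.668, 0.744 and 0.905. It was -0.66 ± 0.34 for Alas2 and -0.087 ± 1.06 for Slc4a1, with adjusted p of 0.555 and 0.985. Leaving out REG 1 turned the direction of the globin genes and Slc4a1: the log2 fold change was then 0.053 for Hbb-bs, 0.033 for Hbb-bt, 0.14 for Hba-a1, 0.41 for Hba-a2 and 1.00 for Slc4a1. For Alas2 it stayed negative, from -0.92 to -0.36, whichever library was left out. DESeq2 and limma voom also called 0 of the 6, and at an unadjusted p under 0.05 DESeq2 had 1, Alas2 at -0.67 (p 0.0466), where 9.70% of all genes did, and limma voom 0.

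For hADMSCs-Exo against LFG, the 6 log2 fold changes lay above 0 and none passed. It was 0.96 ± 0.84 for Hbb-bs, 0.76 ± 0.83 for Hbb-bt, 0.94 ± 0.75 for Hba-a1, 0.71 ± 0.70 for Hba-a2, 0.31 ± 0.525 for Alas2 and 0.76 ± 1.22 for Slc4a1, with adjusted p from 0.875 to 0.951 (edgeR). Of the 12489 genes tested 0% passed, 5.98% had an unadjusted p under 0.05 and 12.3% had groups without overlap, and of the 6 genes 0 met each of these. Without LFG 3, 5.97% of 12955 genes passed, and still 0 of the 6, with Hbb-bs at 0.52 and Alas2 at 0.96. Without hADMSCs-Exo 3 the values were smaller, 0.212 for Hbb-bs, 0.012 for Hbb-bt, 0.269 for Hba-a1, 0.285 for Hba-a2 and 0.054 for Alas2, and Slc4a1 turned to -0.97. Without LFG 1, Alas2 turned to -0.044. DESeq2 and limma voom called 0 of the 6 and had 0 at an unadjusted p under 0.05, which 8.45% of all genes had by DESeq2.

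REG against LFG gave the largest values. The log2 fold change was 1.82 ± 0.91 for Hbb-bs, 1.80 ± 0.92 for Hbb-bt, 1.70 ± 0.80 for Hba-a1, 1.05 ± 0.81 for Hba-a2, 0.97 ± 0.50 for Alas2 and 0.89 ± 1.21 for Slc4a1, with adjusted p of 0.489, 0.498, 0.476, 0.637, 0.496 and 0.794. Again 0 of 6 passed, 0 of 6 had an unadjusted p under 0.05 and 0 of 6 had groups without overlap, where 0%, 11.3% and 18.9% of 12517 genes did. The exact permutation test over the libraries, two-sided on log2 CPM, gave p of 0.2 for Alas2 and 0.3 to 0.6 for the other 5, and with 3 against 3 it cannot go below 0.1. DESeq2 and limma voom called 0 of the 6, and at an unadjusted p under 0.05 DESeq2 had 3 (Hba-a1, Hbb-bs and Hbb-bt, p 0.0246, 0.0296 and 0.0375), where 14.0% of all genes did, and limma voom 0. Taking out LFG 3 changed 1 call: Alas2 was then higher in REG by 1.65 ± 0.36 on the log2 scale with an adjusted p of 0.0276 (edgeR), in a fit where 10.7% of 12948 genes passed. Hbb-bs then stood at 1.35 and Hba-a1 at 1.27, with adjusted p of 0.200 and 0.184. Without REG 1, Hbb-bs stood at 1.00, Hba-a1 at 0.885, Hbb-bt at 0.814, Hba-a2 at 0.371 and Slc4a1 at -0.145.

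**Figure D2:**
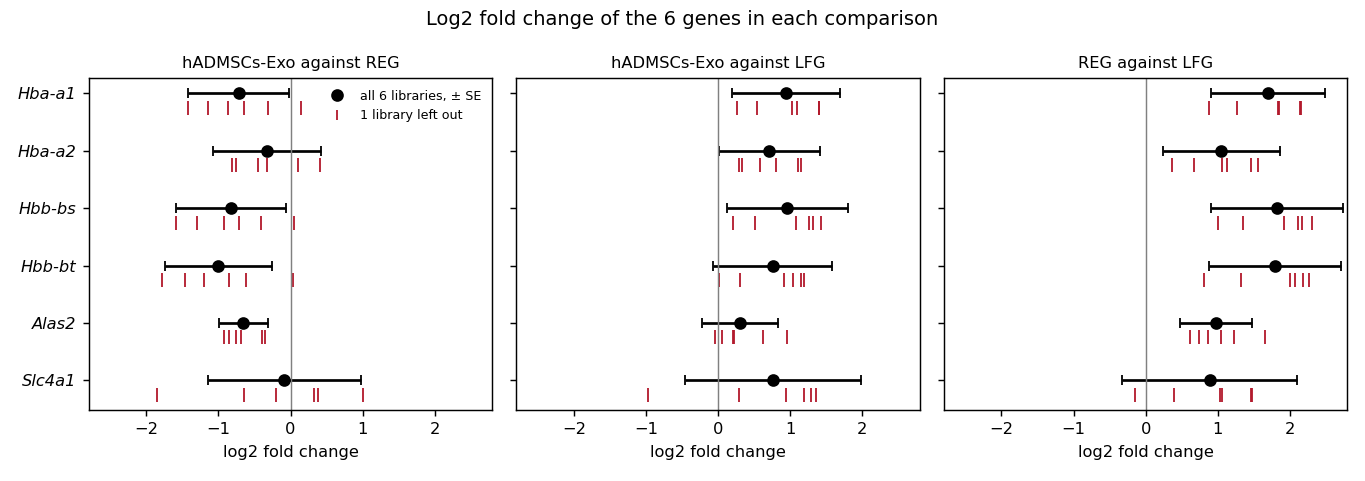
Log2 fold change (horizontal axes) of the 6 genes in the 3 comparisons, the first-named group over the second; black points with bars are the edgeR estimate ± SE from 6 libraries and red ticks the estimates with 1 library left out. For hADMSCs-Exo against REG the ticks of the globin genes reach past 0, and for REG against LFG those of all genes but Slc4a1 stay above 0.

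The Apex2 overlap was looked at because its exons share bases with Alas2, and its values were seen before it was named. Apex2 had 14.25, 11.3 and 14.2 CPM in LFG 1 to 3, 6.48, 4.87 and 7.41 CPM in REG, and 5.83, 9.11 and 10.48 CPM in hADMSCs-Exo. In REG it was below every LFG library, in a comparison where 18.9% of all genes had groups without overlap. Its log2 fold change was -0.945 ± 0.31 with an adjusted p of 0.388 by edgeR, and that of Alas2 was 0.97 ± 0.50. The part of shared reads in the Alas2 level was not tested.

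Between libraries the globin genes kept step with each other. Over the 9 libraries, log2 CPM of Hba-a1 and Hbb-bs correlated with a Pearson r of 0.995 and a Spearman rho of 1 (exact permutation p 2.76e-06 and 5.51e-06, n = 9, adjusted over 5 relations 1.38e-05 and 2.76e-05). Hbb-bt followed Hbb-bs with r = 0.993 and rho = 0.95 (exact permutation p 1.38e-05 and 0.000353, adjusted 3.445e-05 and 0.000882), and Slc4a1 with r = 0.924 and rho = 0.883 (exact permutation p 0.0004 and 0.00308, adjusted 0.000666 and 0.00513). Leaving out LFG 3 and REG 1, the libraries farthest from the median of Hbb-bs, r was 0.984, 0.987 and 0.843 for these 3 genes. Taken on deviations from the group means, r was 0.993, 0.991 and 0.970, so the relation held within the groups. Hba-a2, with its few counts, had r = 0.566 (exact permutation p 0.112, adjusted 0.1395) and rho = 0.783 (exact permutation p 0.0172, adjusted 0.0215), and r = 0.862 without LFG 3 and REG 1. Reads of Hbb-bt and Hbb-bs may be shared, as described above. No 100-base stretch is shared between the alpha genes, the beta genes and Slc4a1. The part of shared reads in these correlations was not tested.

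Alas2 did not keep step. Its r with Hbb-bs was 0.14 and its rho 0.1 (exact permutation p 0.717 and 0.81, which are also the adjusted values), the r within groups was -0.25, and without LFG 3 and REG 1 it was 0.50 (n = 7). Per 100 globin counts there were 5.95 Alas2 counts in REG 1, 13.1 in hADMSCs-Exo 3 and 59.5 in REG 3, and 204 in LFG 3. Slc4a1 stayed between 0 and 0.549 counts per 100 globin counts.

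**Figure D3:**
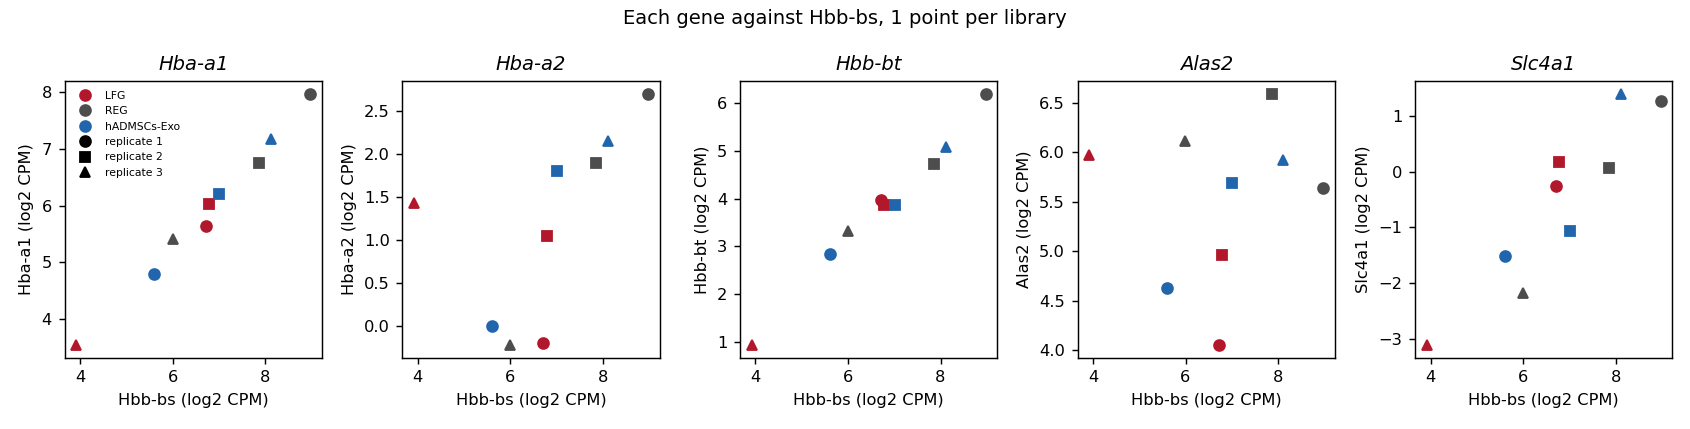
Log2 CPM of each of the other 5 genes (vertical axes) against that of Hbb-bs (horizontal axes), 1 point per library, with colours for the group and shapes for the replicate number. Hba-a1 and Hbb-bt form a straight line (r = 0.995 and 0.993), Slc4a1 a looser one (r = 0.924), and Alas2 no line (r = 0.14).

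The make-up of the globin counts was more even than their amount. Hbb-bt took 10.1% to 13.5% of the beta counts, with a median of 11.55% over 9 libraries. The alpha genes took 29.5% to 36.8% of all globin counts in 8 libraries and 45.5% in LFG 3, with a 95% Wilson interval of 40.3% to 50.8% there. Hba-a2 took 1.51% to 4.39% of the alpha counts in 8 libraries and 18.5% in LFG 3 (29 of 157 counts, interval 13.2% to 25.3%). LFG 3 thus departed in the alpha copies and not in the beta copies, where its 10.6% had an interval of 6.99% to 15.9%.

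**Figure D4:**
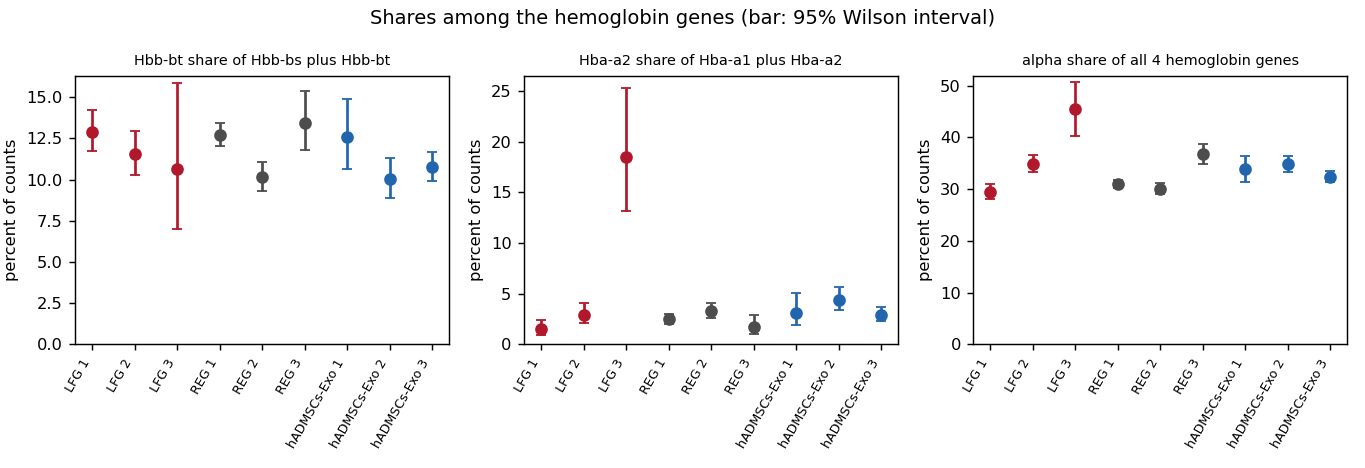
Shares among the 4 globin genes (vertical axes, percent of the counts named in each panel title, from 0) in each library; bars are 95% Wilson intervals and colours the groups. The Hbb-bt share is nearly level at 10.1% to 13.5%, while LFG 3 stands alone at 18.5% for Hba-a2 and at 45.5% for the alpha genes.

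Other red cell genes were then counted from fixed lists. Of 6 other globin genes, the embryonic and theta chains, 4 were at 0 in all 9 libraries (Hba-x, Hbb-bh1, Hbb-bh2 and Hbb-y), and the rest did not exceed 0.174 CPM. Of 16 genes of the red cell membrane, 10 stayed under 1 CPM in every library. Icam4, whose exons share bases with another gene, was listed at 0 throughout. Epb41, which encodes protein 4.1 and is active in many tissues, ran from 76.1 to 153 CPM. Of 8 measured genes of the red cell interior 3 stayed under 1 CPM in every library, among them Trim58 at 0 and Hemgn at no more than 0.0589 CPM. Tfrc, the transferrin receptor, and Slc25a37, which brings iron into mitochondria, stood at 12.4 to 133 CPM and 28.8 to 56.8 CPM. Of 9 regulators of red cell formation 4 stayed under 1 CPM in every library. Zfpm1, a partner of GATA factors, was the highest at 25.55 to 56.95 CPM, while Gata1 reached at most 0.3 CPM, and Epo, the hormone, at most 0.0579 CPM.

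Of these 4 lists, that of the other globin genes had 0 genes tested in each comparison, so none of its genes could pass. Among the tested genes of the remaining lists none passed in any comparison, by edgeR, DESeq2 or limma voom. Few of all genes did: 0.00811%, 0% and 0% by edgeR, in the order of comparisons above. By DESeq2 the shares were 0.543%, 0.480% and 1.92%, and limma voom called 1, 0 and 0 genes. For hADMSCs-Exo against REG, 1 of 5 tested membrane genes, 1 of 5 interior genes and 1 of 5 regulators had an unadjusted p under 0.05, as did 10.0% of all genes. They were Epb41 at 0.54 ± 0.17, Tfrc at 1.07 ± 0.37, and Klf1, a transcription factor of globin genes, at -0.71 ± 0.25 (log2, SE, adjusted p of 0.409, 0.428 and 0.43 by edgeR). The list medians were 0.26, 0.335 and -0.365, beside 0.0080 for all genes. For hADMSCs-Exo against LFG 0 genes of these lists did (5.98% of all genes), with list medians of -0.15, 0.26 and 0.15 beside -0.0587. For REG against LFG (11.3% of all genes) they were Tfrc at -1.77 ± 0.57, Klf1 at 1.77 ± 0.69 and Nfe2, another erythroid and megakaryocyte factor, at 1.45 ± 0.51, with adjusted p of 0.386, 0.416 and 0.392 by edgeR. The list medians were -0.39, 0.31 and 0.41, beside -0.0684.

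Klf1, like Alas2, was higher in LFG 3 than in the other LFG libraries. It had 1.275, 1.34 and 4.34 CPM in LFG 1 to 3, 6.00, 8.92 and 8.67 CPM in REG, and 5.77, 4.01 and 5.24 CPM in hADMSCs-Exo. Klf1 had 22 counts in LFG 1 and 22 in LFG 2. Every REG library was above every other library. Of all genes, 15.8% had no overlap between hADMSCs-Exo and REG, and 18.9% none between REG and LFG. Without LFG 3, Klf1 passed in both comparisons with LFG, at 2.997 ± 0.353 for REG (adjusted p 0.0119) and at 2.25 ± 0.37 for hADMSCs-Exo (adjusted p 0.0251), by edgeR. Of all genes 10.7% and 5.97% passed in these fits. Tfrc passed in the first of these at -2.14 ± 0.37 (adjusted p 0.0167).

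In heme synthesis, where all 8 genes were tested, 0 passed in any comparison by the same 3 tools, beside the shares of all genes given above. Alas1, the housekeeping form of Alas2, had 363 to 1342 CPM. For hADMSCs-Exo against REG it stood at 0.75 ± 0.35 (log2, adjusted p 0.514, edgeR). The list medians were 0.072 (hADMSCs-Exo against REG), 0.001 (hADMSCs-Exo against LFG) and -0.072 (REG against LFG). Fech, which places the iron in heme, ran from 124.5 to 170 CPM.

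Of 13 genes that clear hemoglobin, heme and iron, 0 passed by edgeR or limma voom, and 1 by DESeq2, Cd163 for REG against LFG, where 1.92% of all genes did. Hp and Hpx, the plasma carriers of free hemoglobin and heme that hepatocytes secrete, had 3611 to 10963 CPM and 7329 to 13989 CPM. Cd163, the macrophage receptor for hemoglobin bound to Hp, was the 1 gene of the list with an unadjusted p under 0.05, at 1.502 ± 0.581 for hADMSCs-Exo against REG and at -1.85 ± 0.54 for REG against LFG (log2, adjusted p 0.463 and 0.353, edgeR), in comparisons where 10.0% and 11.3% of all genes did. The first rested on hADMSCs-Exo 2, with 20.9 CPM beside 6.08 and 5.30 CPM in hADMSCs-Exo 1 and 3, and was 0.606 without it (unadjusted p 0.199, edgeR). Without LFG 3 it passed for REG against LFG at -2.16 ± 0.41 (adjusted p 0.0192), as did Hmox1, which breaks down heme, at -1.34 and 10.7% of all genes. The list medians were 0.32, -0.014 and -0.28 in the same order as above.

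White cells and platelets also travel with blood, and their markers did not all follow the globin genes. The 10 neutrophil markers summed to 52.8, 28.0 and 9.90 CPM in LFG 1 to 3, 78.15, 21.1 and 13.5 CPM in REG 1 to 3, and 50.2, 76.9 and 73.4 CPM in hADMSCs-Exo 1 to 3. REG 1 was the highest and LFG 3 the lowest library here as for Hbb-bs, but hADMSCs-Exo 2 and 3 lay close to REG 1, and hADMSCs-Exo 1 just below LFG 1. The 9 lymphocyte markers summed to 3.54 CPM in LFG 3, 11.2 CPM in REG 3 and 15.8 to 23.15 CPM in the other 7. The 10 platelet markers summed to 3.83 to 13.85 CPM, with 7 under 1 CPM in every library and Gp1bb, whose exons share bases with another gene, listed at 0. The part of these cells in the globin levels was not tested.

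By edgeR and limma voom none of the neutrophil, lymphocyte or platelet markers passed in any comparison. By DESeq2 S100a8, S100a9 and Ngp did for hADMSCs-Exo against LFG, where 0.480% of all genes did. For hADMSCs-Exo against LFG 6 of 9 tested neutrophil markers had an unadjusted p under 0.05 (5.98% of all genes), all of them higher, with S100a9 at 1.82 ± 0.34, S100a8 at 2.06 ± 0.42 and Ngp at 2.585 ± 0.54 (adjusted p 0.805 each, edgeR). These 3 passed without LFG 3, at 1.70, 1.94 and 2.27, where 5.97% of all genes did. S100a9, the list's highest gene by CPM, had 10.1, 5.90 and 3.61 CPM in LFG, 27.1, 6.59 and 3.38 CPM in REG, and 13.7, 23.5 and 23.7 CPM in hADMSCs-Exo. The medians of the neutrophil list were 0.85, 1.82 and 1.16 in the same order of comparisons. Those of the lymphocyte list were 0.305, 1.04 and 0.74, and those of the platelet list -0.24, -0.069 and 0.18. Mmp8 of neutrophils at 1.61 ± 0.56 and Cd8a of T cells at 0.71 ± 0.24 had an unadjusted p under 0.05 for hADMSCs-Exo against REG. Cd79a of B cells did so against LFG, at 1.98 ± 0.49 in hADMSCs-Exo and at 2.12 ± 0.62 in REG.

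Of the resident cell lists, 0 of 8 hepatocyte and 0 of 9 stellate cell and matrix markers passed in any comparison by edgeR or limma voom. By DESeq2, which called 0.543%, 0.480% and 1.92% of all genes in the order of comparisons above, Acta2, Col1a1, Col3a1 and Lum were lower in hADMSCs-Exo than in REG, Col1a1 and Col3a1 lower in it than in LFG, and Fgb higher in REG than in LFG. For hADMSCs-Exo against REG 7 stellate markers had an unadjusted p under 0.05 (10.0% of all genes), all lower, led by Col3a1 at -1.73 ± 0.36, Acta2 at -2.60 ± 0.58 and Col1a1 at -1.19 ± 0.31 (edgeR, adjusted p 0.358 for the first and the second and 0.394 for the third). For hADMSCs-Exo against LFG 6 did (5.98% of all genes), all lower. Without LFG 3, edgeR called 7 of the 9 lower for hADMSCs-Exo against LFG (5.97% of all genes) and 4 lower for REG against LFG (10.7%), and Fgb higher in the second. The list medians, in that order, were -1.19, -2.405 and -0.81. The hepatocyte medians were -0.21, -0.16 and 0.055, with Alb at -0.44 ± 0.20 for hADMSCs-Exo against REG, and Fgb, a fibrinogen chain, at 1.17 ± 0.34 for REG against LFG with an unadjusted p of 0.0106. Stellate and matrix genes were highest in LFG 1 and LFG 2, where globin levels were in the middle of the range.

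**Figure D5:**
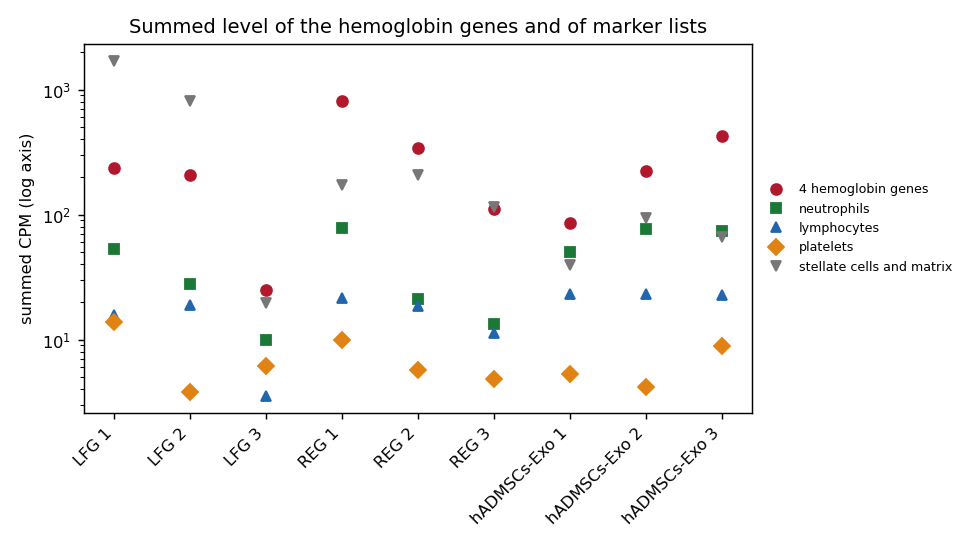
Summed CPM (vertical axis, log scale) of the 4 globin genes and of 4 marker lists in each library (horizontal axis). The globin points span 24.9 to 812 CPM and are lowest in LFG 3, as are those of neutrophils (9.90 CPM), lymphocytes (3.54 CPM) and stellate cells (19.7 CPM), while platelets are not.

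The genes whose level across the 9 libraries was most like the mean log2 CPM of the 4 globin genes were sought among 11982 genes with a mean of at least 1 CPM. Among the 10 nearest were Zscan2 (r = 0.953), Skap2 (0.913), Plaat3 (0.885), Ext2 (0.884), Calhm6 (0.868), Ctsw (0.867), Arvcf (0.864), Serpina3n (0.862) and Nicn1 (0.861). Serpina3n is an acute phase protein and Ctsw a protease of cytotoxic lymphocytes. Most of these moved far less than the globin genes, Skap2 2.17-fold and Ext2 2.12-fold from lowest to highest, against 40.3-fold for Hbb-bs (9.83-fold without LFG 3). By the same measure Slc4a1 had r = 0.909 and Alas2 0.239. With 9 libraries and this many genes, values of this size are a description. They were not computed without LFG 3.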

How the data were processed

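Total RNA of mouse liver was extracted with Trizol, prepared with an NEBNext Ultra kit and sequenced on a NovaSeq. The authors deposited raw counts per gene for 9 libraries, and FPKM, which was checked to be the deposited counts over gene length and total (largest relative difference 9.19e-07). Per the labels, the submitters' processing notes name cutadapt 1.15, HISAT2 2.0.5, HTSeq 0.9.1, DESeq 1.30.0 and GRCm38 without a role, and the columns headed MSC_E were taken as the hADMSCs-Exo libraries. Perfusion of the liver, strand and reads that fit several genes are not given in the sources used here.

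The test of the counts was that of edgeR 4.0.16 (R 4.3.3, quasi-likelihood, two-sided, TMM, filterByExpr, 6 libraries a fit, Benjamini-Hochberg over all genes tested), which was tested on simulated data. DESeq2 1.42.0 and limma 3.58.1 (voom) were among the alternatives, with RLE size factors, library totals, no filter (at least 1 count), all 9 libraries in one fit, copies summed, the replicate number as a block and each library left out. Log2 CPM used a prior count of 2. Intervals and exact permutation tests used scipy 1.17.1, tables pandas 2.3.3 and plots matplotlib 3.10.9 under Python 3.11.15. Deviations from group means of same-numbered libraries correlated across genes by 0.101, 0.308 and 0.18 for hADMSCs-Exo and LFG, the only pair of groups with all values over 0.1, with no label behind that pairing.

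Named were the 6 genes, list genes past the thresholds or up to 3 per list and comparison at an unadjusted p under 0.05, each list's highest gene, and the 10 genes most like the globin genes. Some genes that this rule names are not reported here. Other genes were named after their values were seen. The genes and lists were chosen with earlier results of these data known.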

Additional observations from a re-analysis of the deposited data

How the results depend on the processing

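Of 138 log2 fold changes of the 6 genes under settings other than a left-out library, 138 kept their direction and stayed short of the thresholds. Of 108 with a library left out, 11 turned sign and 1 passed. For hADMSCs-Exo against REG, leaving out REG 1 gave 0.144 for Hba-a1, 0.411 for Hba-a2, 0.053 for Hbb-bs, 0.033 for Hbb-bt and 1.00 for Slc4a1, and the ranges over left-out libraries were -1.42 to 0.144, -0.816 to 0.411, -1.595 to 0.053, -1.78 to 0.033 and -1.86 to 1.00. Hba-a2 also turned without hADMSCs-Exo 1 (0.102), and Slc4a1 without hADMSCs-Exo 1 (0.382) and 2 (0.321). For hADMSCs-Exo against LFG, Alas2 turned without LFG 1 (-0.044, range -0.044 to 0.958) and Slc4a1 without hADMSCs-Exo 3 (-0.97, range -0.97 to 1.35). For REG against LFG, Slc4a1 turned without REG 1 (-0.145, range -0.145 to 1.48), and the calls among the 6 ranged from 0 to 1, Alas2 passing without LFG 3. The cause was not tested.

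Genes of the 6 at an unadjusted p under 0.05 numbered 0 in the edgeR tests reported. For hADMSCs-Exo against REG this became 1 with DESeq2 (9.70% of all genes) and 0 to 1 with a library left out (4.92% to 10.7%). For REG against LFG it became 1 with library totals (11.4% of all genes), 1 with no filter (9.46%), 3 with DESeq2 (14.0%) and 0 to 3 with a library left out (4.51% to 37.3%, the highest without LFG 3, where 1 of the 6 did). With the replicate number as a block it was 1 for hADMSCs-Exo against REG (Alas2, with 9.52% of all genes) and 4 for REG against LFG (Hba-a1, Hbb-bs, Hbb-bt and Alas2, with 8.61%). The numbers did not meet the rule for pairing in either, with correlations of 0.159, 0.00938 and 0.0336 and of 0.415, -0.202 and 0.305, and 2 of 6 and 4 of 6 libraries correlated best with their own number, so they share only a number. For hADMSCs-Exo against LFG, where 6 of 6 did, the block changed no call. Over all genes, DESeq2 called 67, 60 and 240 in the 3 comparisons in the order above, and edgeR without LFG 3 called 773 and 1391 in those with LFG, against 1, 0 and 0. With no filter edgeR called 4, 0 and 0, and with all 9 libraries in one fit 0, 1 and 0. Of 216 log2 fold changes of list genes under the other settings 10 newly passed, and of 162 with a library left out 10 did, with 0 reversed. Slc4a1 and Hba-a2 rest on 0 to 104 counts a library.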
